A study of Rattus norvegicus with 40 samples.

Results

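The smooth muscle contractile genes were taken as 10 named genes, Tagln, Cnn1, Myh11, Acta2, Actg2, Des, Smtn, Myl9, Lmod1 and Mylk. Every probe that the probe table of the series assigned to them was used, whatever its value. This gave 13 of 33849 probes on an array that names 12198 genes through probes with a single symbol. Of these, 12 were assigned to a single gene and together covered 8 of the 10 genes. Probe GE21770 was listed for Acta2, Actg2 and the cytoplasmic actin Actg1 together and was named to none of them. Actg2 had no other probe, and no probe was listed for Des, so levels of these 2 genes are not given here. After the filter on dim spots, 10 single-gene probes of 8 genes were tested, among 24914 probes in all. The other 2 probes, both of Mylk, carried the flag for a good signal on 0 arrays (GE1148796) and 2 arrays (GE1295366) of 40.

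Kidneys came from male rats at 16 weeks of age. The strains were the stroke-prone spontaneously hypertensive SHRSP/Izm and its normotensive counterpart WKY/Izm. Rats of each strain received 1 of 6 antihypertensive drugs or 1 of 4 vehicles, which makes 20 groups with 2 CodeLink arrays each, 40 in all. The drugs were enalapril at 20 mg/kg/day (an angiotensin-converting enzyme inhibitor), candesartan at 5 mg/kg/day (an angiotensin receptor blocker), chlorothiazide at 20 mg/kg/day (a thiazide diuretic), carvedilol at 50 mg/kg/day (an adrenergic receptor blocker), amlodipine at 20 mg/kg/day (a calcium channel blocker) and hydralazine at 10 mg/kg/day (a direct vasodilator). The vehicles were Solvent A (PEG, ethanol and sodium bicarbonate), Solvent B (NaOH), Solvent C (abbreviated as MC in the label) and H2O. They thus differed in composition. Each label names 2 animals, without saying if 1 array holds RNA of both. Candesartan was set against Solvent A, chlorothiazide against Solvent B, carvedilol against Solvent C and enalapril against H2O, since the arrays of each of these pairs shared a scan date, except for replicate 2 of enalapril in WKY. H2O was assumed as the vehicle of amlodipine and hydralazine, which were scanned on other dates and on other slides.

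Vascular smooth muscle contracts when calcium activates myosin light-chain kinase, which phosphorylates the regulatory light chain and lets smooth muscle myosin pull on actin filaments. Actin-binding proteins such as calponin, transgelin, leiomodin and smoothelin accompany these filaments and mark mature, contractile cells. In the kidney such cells line the arteries and arterioles and the wall of the pelvis. Many of their genes are read through serum response factor, which binds a short promoter element called the CArG box.

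The RefSeq promoter table for rat assembly GRCr8 held 6 of the 10 genes (Cnn1, Acta2, Actg2, Des, Smtn and Mylk). Its windows of 300 bases run from 250 bases before the annotated gene start to 50 bases after it. The CArG box was searched as CC, then 6 bases that are each A or T, then GG, which reads the same on both strands. It was present in 0 of the 6 windows and in 548 of 33469 promoters of the table (1.64%). With 1 C or G allowed in the core of 6 bases, matches may overlap strict boxes, and 9.42% of all promoters held such a CArG-like box. Among the 6 genes only Acta2, the actin of vascular smooth muscle, held it, at 2 places. Cnn1 is shown beside it because it was measured by 2 probes and carries the strain and drug differences described below. Both lines give the 250 bases before the gene start, 5′ to 3′ on the strand of the gene, with the CArG-like boxes in capitals. The Acta2 stretch lies at chr1:241172504-241172753 on the minus strand, and the Cnn1 stretch at chr8:28908187-28908436 on the plus strand.
Acta2: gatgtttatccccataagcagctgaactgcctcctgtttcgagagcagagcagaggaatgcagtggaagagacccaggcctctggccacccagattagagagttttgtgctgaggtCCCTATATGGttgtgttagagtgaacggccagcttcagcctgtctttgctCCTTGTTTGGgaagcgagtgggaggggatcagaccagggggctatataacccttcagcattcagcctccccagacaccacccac
Cnn1: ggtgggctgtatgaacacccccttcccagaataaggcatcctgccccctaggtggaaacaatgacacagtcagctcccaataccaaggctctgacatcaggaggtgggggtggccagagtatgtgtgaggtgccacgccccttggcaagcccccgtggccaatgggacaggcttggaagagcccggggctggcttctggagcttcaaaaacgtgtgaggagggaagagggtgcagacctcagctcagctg
These matches are letters in a window and not measured binding.

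Values below are log2 of the quantile-normalised intensity. The deposited intensities had a median of 1 on every array, so a level of 0 is near the median probe of an array. Levels of different probes are not set against each other. Each difference is on the log2 scale with its standard error, as fitted by limma, and a call needs an adjusted p under 0.05 (Benjamini-Hochberg, over all 24914 tested probes). Between 59.3% and 72.6% of the spots on an array were flagged good, and with 2 arrays a group precision is limited by their number. The 6 member probes of Tagln, Cnn1 (GE19470), Myh11 (both), Myl9 and Smtn were flagged good on all 40 arrays, against 36 arrays for Mylk (GE1133597), 32 for Lmod1 and 29 for Acta2. Arrays were scanned on 6 dates, numbered here as sessions 1 to 6. In 3 groups (enalapril in WKY and hydralazine in each strain) the replicates lay in different sessions, and these groups enter the shared estimate of spread. The 8 markers of kidney tubule and podocyte with a probe were each flagged good on all 40 arrays.

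**Figure D1:**
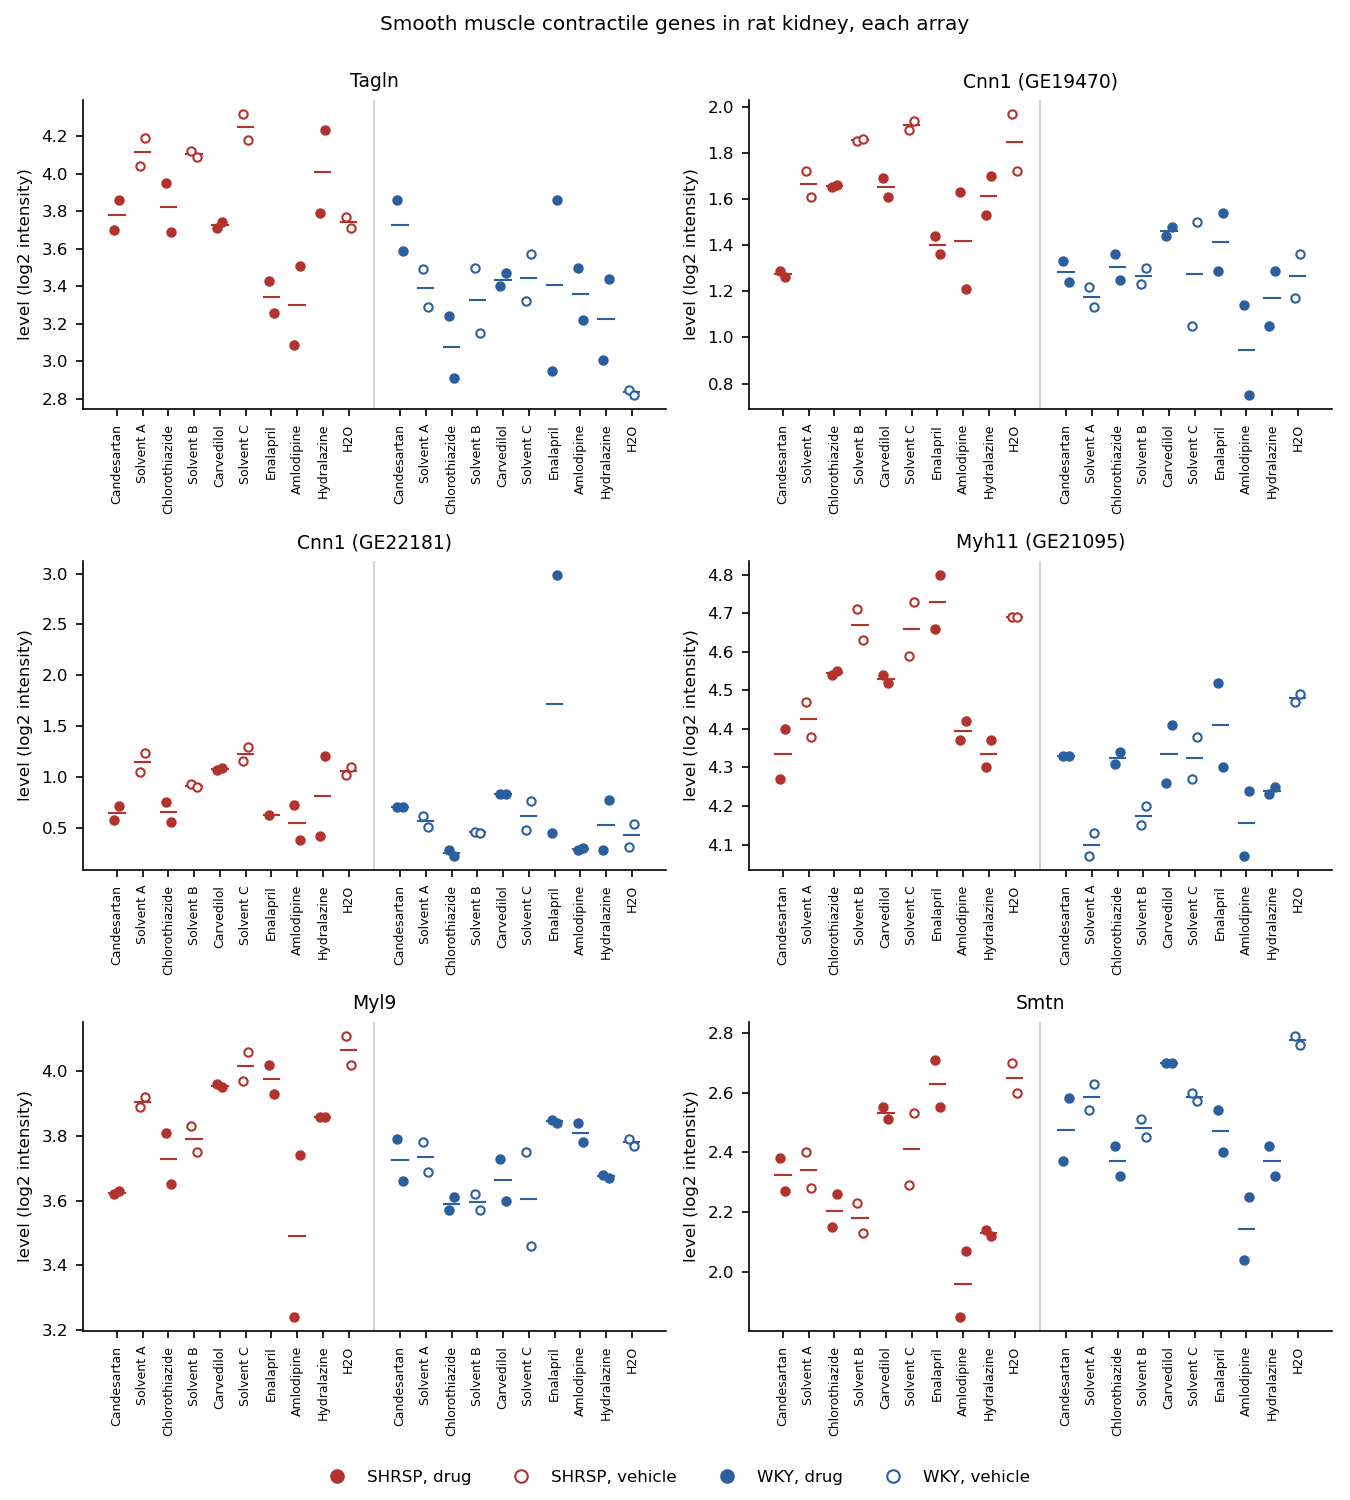
Level (log2 intensity) of 6 member probes on each array, by treatment, for SHRSP (left block) and WKY (right block). Filled points are drug arrays, open points vehicle arrays and short lines group means of 2 arrays. For Tagln and both Cnn1 probes, the SHRSP points of candesartan, chlorothiazide, carvedilol and enalapril lie below those of their vehicles. The SHRSP vehicle points of these probes lie above the WKY vehicle points, while those of Myh11, Myl9 and Smtn overlap between the strains.

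The first comparison asked which contractile genes differ between SHRSP and WKY kidneys without drug (8 vehicle arrays against 8). Transgelin, calponin, myosin heavy chain and regulatory light chain were higher in SHRSP, and smoothelin was lower. Of the 10 probes, 5 passed as higher and 1 as lower, where 10.6% of all tested probes passed as higher and 10.6% as lower. The median difference of the 10 probes was 0.27, against 0.00 for all tested probes.

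Tagln encodes transgelin, an actin-binding protein of differentiated smooth muscle. Its level had a lowest value of 3.71, a median of 4.10 and a highest value of 4.32 on SHRSP vehicle arrays, against 2.82, 3.31 and 3.57 on WKY vehicle arrays. The groups did not overlap, which held for 4.8% of all tested probes. The difference was 0.80 ± 0.11 (1.74-fold, limma adjusted p = 3.27e-06). It was present within each vehicle and therefore within each of 4 sessions, at 0.90 under H2O, 0.72 under Solvent A, 0.78 under Solvent B and 0.80 under Solvent C. Tagln passed in all of these 4 comparisons of 2 arrays with 2 (adjusted p from 0.00701 to 0.0431), where 4.78% of all probes passed as higher under H2O, 3.33% under Solvent A, 3.72% under Solvent B and 3.22% under Solvent C.

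Cnn1 encodes calponin 1, which binds actin and restrains the myosin motor. Its probe GE19470 ranged from 1.61 to 1.97 with a median of 1.85 on SHRSP vehicle arrays, against 1.05 to 1.50 with a median of 1.22 on WKY vehicle arrays. The groups did not overlap. The difference was 0.58 ± 0.07 (1.49-fold, adjusted p = 1.11e-06), and it passed under each vehicle with values from 0.49 (Solvent A) to 0.65 (Solvent C).
The other Cnn1 probe, GE22181, had levels of 0.90 to 1.29 (median 1.07) on SHRSP vehicle arrays, against 0.31 to 0.76 (median 0.49) on WKY vehicle arrays, again without overlap. Its difference of 0.57 ± 0.21 was of the same size but missed the threshold (adjusted p = 0.0537). Its spread was widened by 1 array that is not part of this comparison, replicate 2 of enalapril in WKY, which read 2.99 where replicate 1 read 0.45. With that array left out of the fit, an alternative chosen after seeing the data, the difference was 0.57 ± 0.09 and passed (adjusted p = 3.59e-05). The GE19470 probe read 1.54 on that array and 1.29 on its partner.

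Myh11 encodes the myosin heavy chain of smooth muscle. Probe GE21095 ranged from 4.38 to 4.73 (median 4.66) on SHRSP vehicle arrays, against 4.07 to 4.49 (median 4.23) on WKY vehicle arrays. The ranges overlapped between sessions, but within each session both SHRSP arrays lay above both WKY arrays. The difference was 0.34 ± 0.04 (adjusted p = 7.02e-07), with 0.21 under H2O, 0.32 under Solvent A, 0.50 under Solvent B and 0.34 under Solvent C, and the last 3 passed. The other Myh11 probe, GE1242495, had a difference of 0.26 ± 0.09 (adjusted p = 0.0455). That call was lost in 15 of the 16 fits that left out 1 array of the comparison.

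Myl9 encodes the regulatory myosin light chain. It ranged from 3.75 to 4.11 (median 3.95) in SHRSP vehicle kidneys, against 3.46 to 3.79 (median 3.72) in WKY vehicle kidneys, with the lowest SHRSP and the highest WKY arrays overlapping. The difference was 0.27 ± 0.06 (adjusted p = 0.000768), and it passed by itself only under Solvent C, at 0.41. Smtn, which encodes smoothelin, a filament-associated protein of contractile cells, went the other way. It ranged from 2.13 to 2.70 (median 2.35) in SHRSP, against 2.45 to 2.79 (median 2.58) in WKY, a difference of -0.21 ± 0.05 (adjusted p = 0.00293). The sign was negative under each of the 4 vehicles (-0.12 under H2O, -0.24 under Solvent A, -0.29 under Solvent B and -0.18 under Solvent C), and none of these passed alone.

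The kinase, leiomodin and vascular actin probes did not pass. Mylk, the kinase that phosphorylates the regulatory light chain, differed by 0.08 ± 0.16 (95% interval -0.24 to 0.41). Lmod1, the actin filament nucleator leiomodin 1, differed by 0.03 ± 0.14 (-0.25 to 0.32), and Acta2 by 0.27 ± 0.19 (-0.12 to 0.65). The probe shared by several actins differed by -0.15 ± 0.10. The interval of Acta2 takes in the difference of Myl9, so a difference of that size could not be detected with this dim probe.

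**Figure D2:**
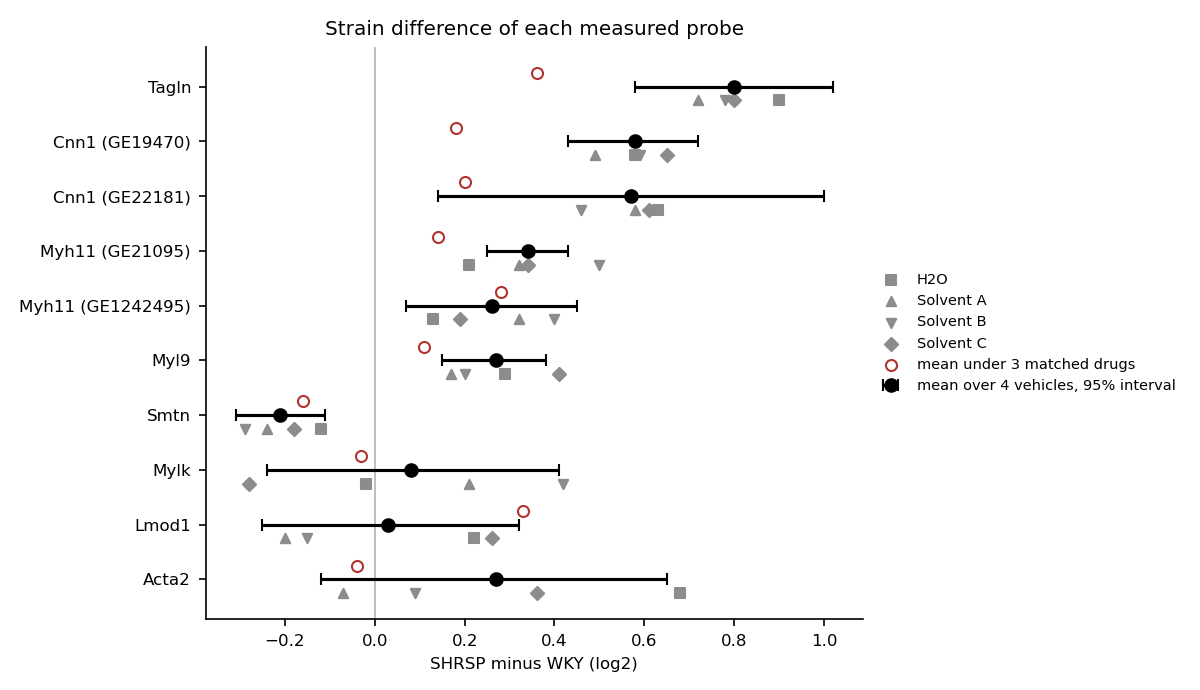
SHRSP minus WKY (log2) for the 10 tested single-gene probes. Black points with bars are the mean over the 4 vehicles with its 95% interval, grey symbols the 4 vehicles alone, and open red points the mean under candesartan, chlorothiazide and carvedilol. Tagln, Cnn1 and Myh11 (GE21095) lie to the right of 0 under every vehicle and Smtn to the left, and the open points of Tagln and Cnn1 lie nearer to 0.

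Levels of several probes moved with the scan session. Smtn ranged from 2.54 to 2.79 on the 7 arrays of session 1 (enalapril and H2O) without reaching down to session 2 (amlodipine and hydralazine, 1.85 to 2.42 on 6 arrays) or session 3 (chlorothiazide and Solvent B, 2.13 to 2.51 on 8 arrays). Its mean on the SHRSP arrays of Solvent B, a vehicle, was 2.18, close to the hydralazine arrays of SHRSP (2.14 and 2.12). Myh11 GE21095 had its lowest level of session 1 at 4.47, above the 4.07 to 4.42 of session 2. Mylk ranged from 0.25 to 0.67 on the 8 arrays of session 6 (candesartan and Solvent A) and from -1.40 to -0.56 on the 8 arrays of session 4 (carvedilol and Solvent C), without overlap. Acta2 was flagged good on all 8 arrays of sessions 3 and 6 each and on 0 arrays of session 4. The shared actin probe ranged from 5.02 to 5.31 in session 6 and from 4.15 to 4.78 in session 4. For all these probes, differences between groups of different sessions cannot be told apart from the session.

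**Figure D3:**
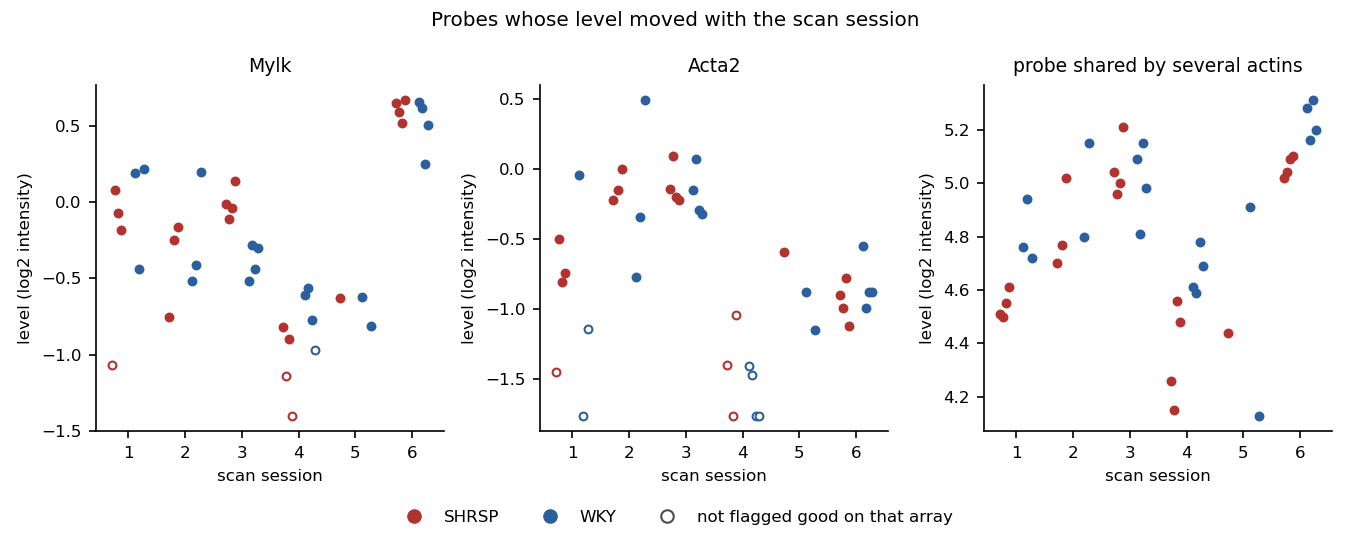
Level (log2 intensity) of Mylk (GE1133597), Acta2 and the probe shared by several actins on each array, by scan session, with SHRSP in red (left of each pair) and WKY in blue. Open points were not flagged good on that array. Mylk is highest in session 6 (0.25 to 0.67) in both strains. Session 4 (-1.40 to -0.56) reaches lowest, and it overlaps session 5 (-0.81 to -0.62).

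The next comparison asked whether drugs move these genes in SHRSP, over the 4 drugs whose vehicle shared session and slides (8 drug arrays against 8 vehicle arrays). Calponin and transgelin were lower on every drug array than on the vehicle arrays of the same session. Of the 10 probes, 1 passed as lower and 0 as higher, where 0.305% of all probes passed as lower and 0.0682% as higher. The median over the 10 probes was -0.10, against 0.01 for all tested probes.

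Cnn1 (GE19470) read 1.44 and 1.36 under enalapril, against 1.97 and 1.72 under H2O. It read 1.29 and 1.26 under candesartan, against 1.72 and 1.61 under Solvent A. It read 1.65 and 1.66 under chlorothiazide, against 1.85 and 1.86 under Solvent B, and 1.69 and 1.61 under carvedilol, against 1.90 and 1.94 under Solvent C. In each of the 4 pairs both drug arrays lay below both vehicle arrays. The mean difference was -0.32 ± 0.07 (adjusted p = 0.0468), made of -0.44 under enalapril, -0.39 under candesartan, -0.20 under chlorothiazide and -0.27 under carvedilol. The call was lost in each of the 16 fits that left out 1 of the compared arrays, with values between -0.36 and -0.29 and adjusted p between 0.0519 and 0.119. It was also lost with median scaling (-0.38, adjusted p = 0.1) and in the authors' series table (-0.33, adjusted p = 0.112).

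Tagln read 3.43 and 3.26 under enalapril, against 3.77 and 3.71 under H2O. It read 3.70 and 3.86 under candesartan, against 4.04 and 4.19 under Solvent A. It read 3.95 and 3.69 under chlorothiazide, against 4.12 and 4.09 under Solvent B, and 3.71 and 3.74 under carvedilol, against 4.32 and 4.18 under Solvent C. Again both drug arrays lay below both vehicle arrays in each pair. The mean difference of -0.38 ± 0.11 did not pass (adjusted p = 0.165). It passed under other estimates of the spread, at an adjusted p of 0.0124 with a fixed block for session, 0.0399 with a random one and 0.0231 when the fit held the compared groups alone. Without replicate 2 of enalapril in WKY it was 0.0495.

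Cnn1 probe GE22181 read 0.58 and 0.71 under candesartan, against 1.05 and 1.24 under Solvent A. It read 0.75 and 0.56 under chlorothiazide, against 0.93 and 0.90 under Solvent B, and 1.07 and 1.09 under carvedilol, against 1.16 and 1.29 under Solvent C. Under enalapril a single array had a usable spot, at 0.63, against 1.02 and 1.10 under H2O. The mean difference was -0.33 ± 0.22 (adjusted p = 0.833), and -0.33 ± 0.06 with a fixed block for session (adjusted p = 0.00824). That block fits sessions 2 and 5, which hold none of the compared arrays, so it changed only the estimate of spread. Replicate 2 of enalapril in WKY, which widened the spread of this probe, lies in session 5. Thus 3 of the 10 probes, those of 2 genes, lay below the vehicle in all 4 pairs. Of all tested probes 0.446% did so.

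The other members did not show this order. Myl9 lay below its vehicle in 3 of the 4 pairs, with a mean difference of -0.12 ± 0.06 (adjusted p = 0.58) and -0.28 under candesartan. Myh11 lay below in 2 pairs for GE21095 (-0.08 ± 0.04) and 1 pair for GE1242495 (0.04 ± 0.09). Smtn differed by 0.03 ± 0.05 (95% interval -0.08 to 0.13), and Mylk, Acta2 and Lmod1 differed by -0.07 ± 0.16, 0.00 ± 0.20 and -0.18 ± 0.14. The Acta2 value lacks 1 carvedilol array, whose spot could not be used.

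In WKY the matched drugs were candesartan, chlorothiazide and carvedilol (6 drug arrays against 6 vehicle arrays). None of the 10 probes passed with limma, where 0.0201% of all probes passed. At an unadjusted p under 0.05 there were 2 of the 10, and 1165 of all 24914 tested probes. Cnn1 (GE19470) ranged from 1.24 to 1.48 (median 1.34) on drug arrays, against 1.05 to 1.50 (median 1.22) on vehicle arrays, with overlap and a difference of 0.11 ± 0.08. Tagln ranged from 2.91 to 3.86 (median 3.44) on drug arrays, against 3.15 to 3.57 (median 3.41) on vehicle arrays, a difference of 0.02 ± 0.12. Of the 10 probes 0 lay below the vehicle in all 3 WKY pairs, where 0.714% of all tested probes did. By drug, Tagln differed by 0.34 under candesartan, -0.26 under chlorothiazide and -0.01 under carvedilol. The 2 probes with an unadjusted p under 0.05 were Myh11 GE21095, at 0.13 ± 0.05, and Lmod1, at -0.44 ± 0.16. Of the 6 Lmod1 drug spots behind that value, 3 were not flagged good (both under carvedilol and 1 under chlorothiazide).

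The difference between the strains in the response to these 3 drugs was tested directly. None of the 10 probes passed, where 0.00401% of all probes passed. At an unadjusted p under 0.05 there were 3 of the 10, and 1126 of all 24914 tested probes. Cnn1 GE19470 responded by -0.40 ± 0.12 more in SHRSP than in WKY (unadjusted p = 0.00257, adjusted p = 0.763 by limma). For Tagln the value was -0.40 ± 0.18 (unadjusted p = 0.0317) and for Myh11 GE21095 -0.25 ± 0.07 (unadjusted p = 0.00131). A response confined to SHRSP is therefore not shown.

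**Figure D4:**
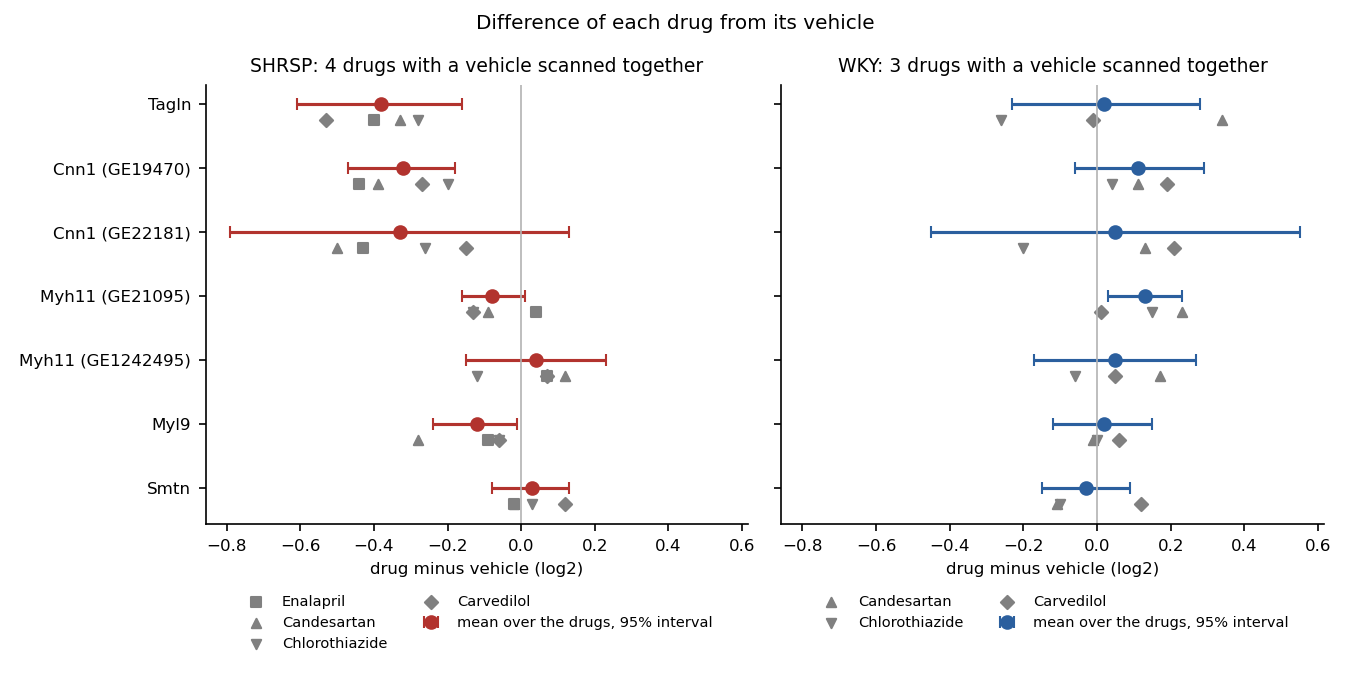
Drug minus vehicle (log2) for 7 member probes in SHRSP (left) and WKY (right). Coloured points with bars are the mean over the matched drugs (4 in SHRSP, 3 in WKY) with its 95% interval, and grey symbols the single drugs. In SHRSP all symbols of Tagln and of both Cnn1 probes lie left of 0, while in WKY symbols of Tagln lie on both sides of it.

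Strain differences under the 3 matched drugs were set beside those under their vehicles. None of the 10 probes passed under the drugs, where 13.4% of all probes passed. At an unadjusted p under 0.05 there were 6 of the 10, and 5821 of all 24914 tested probes. Under the vehicles of these drugs 4 probes passed as higher and 1 as lower, where 8.04% and 8.47% of all probes passed. Tagln differed between SHRSP and WKY by 0.36 ± 0.12 under the drugs (adjusted p = 0.0557), against 0.77 ± 0.12 under the vehicles of these drugs. Cnn1 (GE19470) differed by 0.18 ± 0.08 under the drugs (adjusted p = 0.2), against 0.57 ± 0.08 under the vehicles. Myh11 (GE21095) differed by 0.14 ± 0.05 against 0.38 ± 0.05, and Myl9 by 0.11 ± 0.06 against 0.26 ± 0.06. Smtn differed by -0.16 ± 0.06 under the drugs, against -0.24 ± 0.06 under the vehicles. The change of these strain differences is the same quantity as the difference in response tested above, which did not pass. The count under the drugs depended on the estimate of spread: 5 probes passed with a fixed block for session and 6 when the fit held the compared groups alone. Leaving out replicate 2 of enalapril in WKY gave 2 (Tagln at an adjusted p of 0.0143 and Myh11 GE21095 at 0.0423).

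Taken drug by drug, enalapril, candesartan, chlorothiazide and carvedilol gave 0 calls among the 10 probes in SHRSP, where 0.959%, 0.0281%, 0.0442% and 0.165% of all probes passed, in that order. At an unadjusted p under 0.05, limma gave 1 probe for enalapril, 2 for candesartan, 0 for chlorothiazide and 1 for carvedilol. Of all 24914 tested probes 2701, 687, 671 and 1877 lay under that limit, in the same order. In WKY the same 4 drugs also gave 0 calls, with 5.54% of all probes called for enalapril, 0.0201% for candesartan, 0.0321% for chlorothiazide and 0.108% for carvedilol. At an unadjusted p under 0.05 there were 4 probes for enalapril in WKY, 1 for candesartan, 0 for chlorothiazide and 1 for carvedilol. Of all tested probes 5060, 401, 1303 and 1755 did so in WKY. Over both strains and for the difference between strains, the 4 drugs also gave 0 member calls. The shares of all probes called over both strains were 1.89% for enalapril, 0.0361% for candesartan, 0.1% for chlorothiazide and 0.12% for carvedilol, and for the difference 2.46%, 0%, 0.00401% and 0.0201%. At an unadjusted p under 0.05 the member counts were 1, 0, 0 and 1 over both strains and 4, 3, 1 and 1 for the difference. The counts over all tested probes were 3896, 436, 1267 and 1942 over both strains and 4268, 667, 613 and 1627 for the difference.

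Enalapril in WKY is not matched, since its replicate 2 lay in session 5 and both its arrays were on other slides than H2O. There Tagln read 2.95 and 3.86 under enalapril, against 2.85 and 2.82 under H2O, so its difference of 0.57 ± 0.22 rests on the array of session 5.

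Amlodipine and hydralazine were set against H2O arrays of another session and slides, so drug and session cannot be told apart in the values that follow. Over both strains amlodipine gave 1 higher and 4 lower probes of 10, where 15.6% of all probes passed as higher and 15.4% as lower. Hydralazine gave 1 higher and 2 lower, where 14.1% and 14.5% of all probes passed. In the same comparisons the tubule and podocyte list had 4 of 8 genes higher and 1 lower under amlodipine (median 0.40) and 3 higher and 2 lower under hydralazine (median 0.24), with sums of 468 to 556 under amlodipine and 450 to 512 under hydralazine, against 412 to 451 under H2O. Of the 11 fibroblast and matrix genes 4 were lower under amlodipine and 7 under hydralazine, with sums of 173 to 259 and 152 to 230, against 186 to 266 under H2O. Of the 8 endothelial genes 3 were lower with each drug, with sums of 66.2 to 77.6 under amlodipine and 68.9 to 82.4 under hydralazine, against 79.9 to 88.8 under H2O. The part of these cells in the values of the members was not tested.
Smtn was lower with both drugs. It read 1.85 and 2.07 under amlodipine in SHRSP, against 2.70 and 2.60 under H2O. In WKY it read 2.04 and 2.25 under amlodipine, against 2.79 and 2.76 under H2O. No array overlapped, and the difference over both strains was -0.66 ± 0.07 (adjusted p = 2.73e-07). Under hydralazine it read 2.14 and 2.12 in SHRSP and 2.42 and 2.32 in WKY, a difference from H2O of -0.46 ± 0.07 over both strains (adjusted p = 3.74e-05). With a fixed block for session the amlodipine value was -0.58 ± 0.18 (adjusted p = 0.0691) and the hydralazine value -0.35 ± 0.16 (adjusted p = 0.254). With median scaling the hydralazine value was -0.15 ± 0.09 (adjusted p = 0.18).

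Under amlodipine Myh11 (GE21095) differed from H2O by -0.31 ± 0.06 (adjusted p = 0.000335), Cnn1 (GE19470) by -0.37 ± 0.10 (0.00739) and Myl9 by -0.27 ± 0.08 (0.0108) over both strains. Myl9 read 3.24 and 3.74 under amlodipine in SHRSP, against 4.11 and 4.02 under H2O, and 3.84 and 3.78 under amlodipine in WKY, against 3.79 and 3.77 under H2O. Its difference was thus -0.58 ± 0.11 in SHRSP (adjusted p = 0.000803) and 0.03 ± 0.11 in WKY, and the test of the difference between strains gave -0.61 ± 0.16 (adjusted p = 0.101). Tagln read 3.09 and 3.51 under amlodipine in SHRSP, against 3.77 and 3.71 under H2O, and 3.50 and 3.22 under amlodipine in WKY, against 2.85 and 2.82 under H2O. The arrays lay below H2O in SHRSP and above it in WKY, at -0.44 ± 0.22 (adjusted p = 0.164) and 0.53 ± 0.22 (adjusted p = 0.106), and its difference between strains of -0.96 ± 0.31 did not pass (adjusted p = 0.221, and 0.0263 with a fixed block for session). Without replicate 1 of amlodipine in SHRSP, the Myl9 value over both strains was -0.14 (adjusted p = 0.112). That of Cnn1 was -0.27 without replicate 2 of amlodipine in SHRSP (adjusted p = 0.0616) and -0.28 without replicate 2 in WKY (adjusted p = 0.0582). With median scaling Myh11 (-0.23, adjusted p = 0.0915), Cnn1 (-0.19, 0.337) and Myl9 (-0.17, 0.29) did not pass.
Taken by strain, amlodipine gave 4 lower and 0 higher probes in SHRSP (Cnn1 GE19470, Myh11 GE21095, Myl9 and Smtn), where 8.9% and 10.2% of all probes passed. In WKY it gave 2 lower and 0 higher (Myh11 GE21095 and Smtn), where 6.45% and 8.21% passed. Hydralazine gave 2 lower and 0 higher in SHRSP (Myh11 GE21095 and Smtn), where 7% and 7.73% passed, and 1 lower and 1 higher in WKY (Smtn and Acta2), where 6.51% and 7.89% passed. The Cnn1 call in SHRSP was lost without replicate 2 of amlodipine (-0.22, adjusted p = 0.431). The difference between strains gave 0 calls for either drug, where 0.285% of all probes were called for each. At an unadjusted p under 0.05 it gave 2 member probes for amlodipine and 0 for hydralazine. Of all 24914 tested probes 2276 and 2486 lay under that limit.
Acta2 was higher than under H2O by 0.74 ± 0.26 with amlodipine (adjusted p = 0.0354) and by 0.80 ± 0.26 with hydralazine (0.0262) over both strains. Of the 4 H2O arrays behind these values only the 2 of SHRSP had a good Acta2 flag, so their size is not exact. In SHRSP alone, where every spot was good, neither passed, at 0.59 ± 0.37 with amlodipine (adjusted p = 0.287) and 0.48 ± 0.37 with hydralazine (adjusted p = 0.416). In WKY, hydralazine arrays read 0.49 and -1.15, the first from session 2 and the second from session 5, against H2O arrays at -1.76 and -1.14. Neither H2O spot was flagged good. Against a bound of -1.13 for the H2O mean, the mean of the hydralazine arrays was at least 1.74-fold higher. This rests on the array of session 2, since that of session 5 did not exceed the bound. The limma call (adjusted p = 0.0462) belongs to the difference of 1.12 ± 0.37 fitted without the bound. Without replicate 1 of hydralazine the difference in WKY was 0.30 (adjusted p = 0.614). Of the 8 fits that each lacked 1 compared array, the Acta2 call over both strains was lost in 6 for amlodipine (0.59 to 0.76 in those) and in 5 for hydralazine (0.39 to 0.82), with the lowest value without replicate 1 of hydralazine in WKY (adjusted p = 0.201). With a fixed block for session, none of the calls of Smtn, Myh11, Cnn1 GE19470, Myl9 or Acta2 over both strains passed for amlodipine or hydralazine.

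The 20 group means were put in order for the members with the clearest differences. For Tagln the highest mean was in SHRSP under Solvent C (4.25) and the lowest in WKY under H2O (2.84), and neighbours in the order differed by at most 0.28 (SHRSP under carvedilol above WKY under Solvent C), against a residual SD of 0.23. For Cnn1 (GE19470) the highest was again SHRSP under Solvent C (1.92) and the lowest WKY under amlodipine (0.95), with neighbours at most 0.23 apart and a residual SD of 0.15. For Smtn the lowest mean was in SHRSP under amlodipine (1.96) and the highest in WKY under H2O (2.78), with neighbours at most 0.17 apart and a residual SD of 0.09. For Cnn1 and Smtn this widest step set off the lowest group. Other neighbours in these orders lay closer still, and differences between neighbours were not tested.

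Across the 40 arrays, which share strain and session structure, Tagln correlated with Cnn1 GE19470 at r = 0.68, and Cnn1 GE19470 with Myh11 GE21095 at r = 0.68. The 2 Cnn1 probes correlated at r = 0.55 over 39 arrays and the 2 Myh11 probes at r = 0.66. Smtn correlated with Tagln at r = -0.33 and with Cnn1 GE19470 at r = -0.10. Deviations from the group means leave out strain and drug, but keep the session in the groups whose replicates lay in different sessions. The deviations of the 2 arrays of a group mirror each other, so they are not independent. By these deviations Tagln correlated with Cnn1 GE19470 at r = 0.38 and Cnn1 GE19470 with Myh11 GE21095 at r = -0.15. Tagln correlated with Myh11 GE1242495 at r = -0.66 and the 2 Myh11 probes with each other at r = 0.26. The genes whose level was most like the mean standardised level of the 6 member probes that were good on every array were Alox15b (r = 0.81), Nav1 (0.81), Pla2g2a (0.80), Aldh1a2 (0.78) and Mutyh (0.78), among 8859 candidate probes over 40 arrays. By deviations from the group means they were Eps8l2 (0.73), Flt1 (0.73), Idua (0.70), Trim37 (0.69) and Tmem86a (0.69). The members did not share these profiles closely. By level, each of the 6 probes against the mean of the other 5 gave r from -0.03 (Smtn) to 0.79 (Myh11 GE21095), and by deviations r from -0.52 (Cnn1) to 0.21 (Smtn).

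Further genes of smooth muscle contraction and its regulation were counted from a list of 35, of which 24 had a probe and 20 were tested. Between the strains 9 were higher in SHRSP, 2 were lower and 9 did not pass, with a median difference of 0.15. Of all tested probes 10.6% passed as higher and 10.6% as lower. Kcnmb1, the beta subunit of the calcium-activated potassium channel of smooth muscle, was higher by 1.17 ± 0.13 (adjusted p = 1.85e-07). Tpm2, a tropomyosin, was higher by 0.51 ± 0.07, and Mustn1 by 0.52 ± 0.07. Fhl1, a LIM-domain protein, differed by -0.49 ± 0.06 (adjusted p = 2.26e-06). With the matched drugs in SHRSP, 0 of these 20 genes passed with limma, and their median was -0.07. Of all probes 0.305% passed as lower and 0.0682% as higher. At an unadjusted p under 0.05 there were 8 of the 20 genes, and 1981 of all 24914 tested probes. Over both strains, amlodipine gave 2 higher and 9 lower and hydralazine 2 higher and 6 lower, with the limit on session given above. Of all probes 15.6% passed as higher and 15.4% as lower with amlodipine, and 14.1% and 14.5% with hydralazine.

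Markers of other cells that a kidney sample holds were counted in the strain comparison, where 10.6% of all probes passed as higher and 10.6% as lower. Between the strains, 3 of 9 pericyte and mesangial genes were higher in SHRSP and 1 was lower, and 5 of 11 fibroblast and matrix genes were higher (Tnc by 0.59 ± 0.06) and 2 lower (Mgp at -1.08 ± 0.05 and Dcn at -0.28 ± 0.07). The median difference was 0.11 for the pericyte list and 0.35 for the fibroblast list, against 0.27 for the member probes. The summed intensity of the pericyte list ranged from 66.6 to 76.5 on SHRSP vehicle arrays, against 60.9 to 73.9 on WKY vehicle arrays. That of the fibroblast list ranged from 163 to 225 in SHRSP, against 218 to 266 in WKY. The fibroblast sum, in which bright genes weigh most, thus ran opposite to the median of its list. The endothelial list had 4 of 8 higher and 1 lower (Pecam1 0.50 ± 0.04, Vwf -0.79 ± 0.07), with sums of 73.9 to 88.8 in SHRSP, against 69.8 to 80.6 in WKY. Of the 6 genes of urothelium, which lines the pelvis beside smooth muscle, 2 were higher (Krt5 0.76 ± 0.12, good on 11 of 40 arrays, and Psca 0.46 ± 0.08) and 0 lower. The summed intensity of the urothelium list ranged from 14.8 to 21.2 on SHRSP vehicle arrays, against 12.4 to 14.8 on WKY vehicle arrays. Of the blood cell list 2 of 5 were higher, and its sum ranged from 31.8 to 37.2 in SHRSP, against 24.5 to 31.5 in WKY. Of the striated muscle list 1 of 5 was higher, its sum ranged from 2.05 to 3.17 in SHRSP, against 2.11 to 2.79 in WKY, and its defining genes Mb, Myh1 and Myh4 were flagged good on 0 arrays. The adipose list had 1 of 4 higher, with sums of 41.5 to 55.9 in SHRSP, against 44.6 to 60.6 in WKY. The tubule and podocyte list had 2 of 8 higher and 1 lower, with sums of 437 to 527 in SHRSP, against 412 to 475 in WKY. In whole kidney RNA, more smooth muscle cells and more RNA per cell cannot be told apart, and the part of these other cell types in the strain differences was not tested.

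With the matched drugs in SHRSP, 5 of 11 fibroblast and matrix genes were lower and 0 higher, where 0.305% and 0.0682% of all probes passed. They were Postn (-0.73 ± 0.13), Tnc (-0.36 ± 0.06), Mgp (-0.35 ± 0.05), Fn1 (-0.35 ± 0.07) and Vim (-0.28 ± 0.06). By drug, the list median was -0.51 under enalapril (6 lower), -0.36 under candesartan, -0.16 under chlorothiazide and -0.08 under carvedilol, the others with 0 calls. The Cnn1 call beside it was lost whenever 1 compared array was left out. The summed intensity of the fibroblast list ranged from 133 to 169 on drug arrays, against 163 to 225 on vehicle arrays. The part of this list in the Cnn1 and Tagln values was not tested. Of the other cell lists 1 gene passed, the tubule gene Calb1 (-0.55 ± 0.07). There were 0 limma calls among the pericyte, endothelial, urothelium, striated muscle, adipose and blood cell genes. At an unadjusted p under 0.05 there were 5 of these genes, and 1981 of all 24914 tested probes. The urothelium sum ranged from 14.6 to 18.9 on drug arrays, against 14.8 to 21.2 on vehicle arrays.

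**Figure D5:**
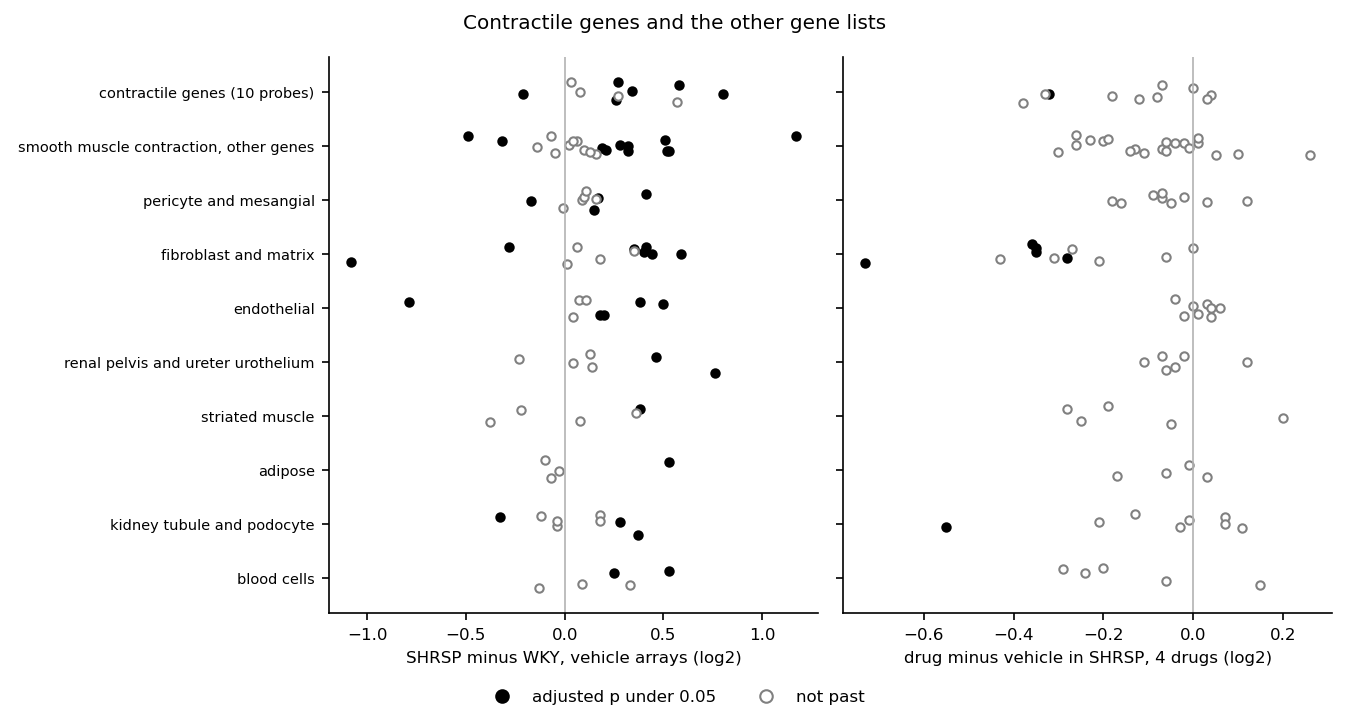
Log2 differences of the contractile genes (top row, 10 probes) and of the genes of 9 other lists, for SHRSP minus WKY on vehicle arrays (left) and matched drugs minus vehicle in SHRSP (right). Filled points have an adjusted p under 0.05, and the vertical position within a row is spread at random. In the right panel the filled points are Cnn1, 5 fibroblast and matrix genes and 1 tubule gene, all left of 0.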

How the data were processed

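Per the labels, Cy5-labelled targets made from total RNA of rat kidneys were run on 1-colour CodeLink arrays. Per the file headers, each deposited file gave every probe an intensity, already normalised, with a flag for spot quality. No source used here names the scanner software or its normalization. The deposited intensity had a median of 1 on every array and 9269 values at or below 0. Of 780 pairs of arrays 0 were identical.

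Spots flagged POOR were left out, intensities were quantile normalised, set to a floor of 0.295 (percentile 1 of the values with a good flag), then put on a log2 scale. Of 33849 probes, 24914 were good on the 2 arrays of 1 group or more and had values in all 20 groups. They were tested with limma 3.58.1 in R 4.3.3 (lmFit, eBayes, all 40 arrays, 1 mean per group, 20 residual degrees of freedom). The code was tested on simulated data. Python 3.11.15 with pandas 2.3.3, NumPy 2.4.6 and Matplotlib 3.10.9 made the summaries and plots. Symbols came from the probe table of the series, updated through RefSeq (GRCr8). A list gene was represented by its brightest probe with a value on every array. All member probes were named, with up to 4 list genes past the threshold per comparison (smallest p first), the genes of other cell types beside a result and the 5 most alike genes. Vim was named for the drugs after its value was seen. Members, lists and this rule were chosen with earlier results of these data known. The bound for Acta2 took, on each array, the higher of the lowest good-flagged signal and the probe's own. Which vehicle a drug was given in is not in the labels. Replicates are biological, per the design text. Alternatives were normexp, median scaling, the authors' series table, no filter, session blocks, only the compared groups, keeping POOR spots and leaving out each array.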

Additional observations from a re-analysis of the deposited data

How the results depend on the processing

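In the strain comparison on vehicle arrays, between 5 and 7 member probes passed under every alternative run, against 6 as reported, and no member difference changed sign in any comparison and alternative where it was called. The strain count under the matched drugs (0 as reported) was 1 with median scaling, 2 without the filter, 5 with session as a fixed block, 4 with it as a random block, 6 with only the compared groups, and 0 to 2 with 1 array left out. The count for the matched drugs in SHRSP (1 as reported) was 0 with median scaling and 0 with the authors' series table, 3 with the fixed block, 2 with the random block, 3 with only the compared groups, and 0 to 2 with 1 array left out. For enalapril in WKY (0 as reported) 4 probes passed with median scaling, which raised the median of all probes there by 0.31, 1 with the authors' table, 1 with either block and 0 to 2 with 1 array left out. Its difference between strains gave 2 with median scaling and 0 to 2 with 1 array left out, and both strains together 0 to 1.

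The amlodipine counts over both strains (5 as reported) were 2 with median scaling, 1 with either block, 3 with only the compared groups and 3 to 5 with 1 array left out. In SHRSP (4 as reported) they were 2, 1 (fixed block), 2 (random block), 0 and 2 to 5, and at most 5 under any other alternative. In WKY (2 as reported) they were 1 with either block, 0 with only the compared groups and 1 to 3 with 1 array left out. The difference between strains (0 as reported) gave 1 with the fixed block and 0 to 1 with 1 array left out. The hydralazine counts over both strains (3 as reported) were 1 with either block, at most 4 under any other alternative and 2 to 4 with 1 array left out. In SHRSP (2 as reported) they were 1 with median scaling, 1 with either block and 0 with only the compared groups. In WKY (2 as reported) they were 1 with median scaling, 1 with the fixed block, 0 with the random block, 0 with only the compared groups and 0 to 3 with 1 array left out. Median scaling raised the median of all probes by 0.12 for amlodipine and 0.27 for hydralazine over both strains. With the fixed block, the call for amlodipine and hydralazine was Cnn1 GE22181 (-2.22 and -2.29 over both strains), which rests on replicate 2 of enalapril in WKY, 1 of the 3 arrays of session 5. The cause of the other changes was not tested. The counts for candesartan, chlorothiazide and carvedilol were 0 under every alternative run. The labels give the arrays no replicate numbers, and replicates 1 and 2 are numbered here by the order of the series. No pairing of arrays is given, so no paired analysis was made. Dim probes limit what can be said of Acta2, Lmod1 and Mylk, and nothing is given for Des or for Actg2 alone.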
